A study of Mus musculus with 18 samples.

Results

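Enzymes that couple drugs, hormones and lipid oxidation products to glutathione, glucuronic acid or sulfate were followed across mouse liver after ischemia and reperfusion, with and without oridonin. Members were every row of the deposited gene table named as a soluble glutathione transferase (Gsta, Gstm, Gstt, Gstp, Gsto, Gstz or Gstk), a UDP-glucuronosyltransferase of the Ugt1a, Ugt2a, Ugt2b or Ugt3a families, or a cytosolic sulfotransferase (Sult), and 6 pseudogene rows were left out. The rule gave 65 of the 56691 rows, with 23 Gst, 21 Ugt and 21 Sult genes. The rule used names alone and no measured value.

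Glutathione transferases add the tripeptide glutathione to electrophiles, among them products of lipid peroxidation. UDP-glucuronosyltransferases of the endoplasmic reticulum use UDP-glucuronate to make bilirubin, steroids, bile acids and phenols water-soluble, and sulfotransferases use the donor PAPS to sulfate phenols, steroids and bile acids. Hepatocytes are the main site of all these reactions, and many of the genes are known targets of the transcription factors NRF2, AHR, CAR (Nr1i3) and PXR (Nr1i2).

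All 18 libraries came from livers of WT mice of the C57BL/6 strain, whose age and sex are not given in the labels. In the IR-Ori group (6 libraries) and the IR group (6 libraries) a clip on the portal triad cut off the median and left lobes, about 70% of the liver, for 1 h, and blood flow was then restored for 6 h. IR-Ori mice also received oridonin, a diterpenoid of Isodon herbs (dose, route and time not given in the sources used here). Sham mice (6 libraries) had a laparotomy and no clip. Nothing in the labels says whether the libraries of a group came from separate animals, so the p-values speak only of variation from library to library, which may be technical.

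Libraries held 12449529 to 19798188 counts. Counts from the 37 mitochondrially encoded genes made up 27.1 ± 6.60% of a library in IR-Ori, 19.2 ± 12.99% in IR and 21.9 ± 12.88% in sham (SD, n = 6 each). A total of 7 libraries lay at 6.52% to 14.5% (IR-Ori 5, IR 4, IR 5, IR 6, sham 1, sham 3 and sham 4), and the other 11 lay at 19.5% to 42.9%, so results are also given within these ranges where they differ. Of 9 hepatocyte markers, none passed the test in any comparison, and Alb was at 6522 FPKM (counts scaled by exon length and library total) or more in every library. Markers of neutrophils rose in IR over sham in 6 of 6 and fell in IR-Ori against IR in 1 of 6, with none at 0, and their summed level was 7.50 to 59.8 FPKM in IR-Ori, 59.7 to 288 FPKM in IR and 3.84 to 25.8 FPKM in sham. Markers of monocytes rose in 4 of 4 tested and fell in IR-Ori against IR in 4 of 4, summing to 1.16 to 2.18 FPKM in IR-Ori, 5.04 to 38.9 FPKM in IR and 0.53 to 2.18 FPKM in sham, with the defining marker Ly6c2 at 0 in 2 IR-Ori libraries and 1 sham library. Endothelial markers rose in 3 of 5 in IR over sham. Of 5 cholangiocyte markers 1, Sox9, fell in IR-Ori against IR by 3.24 on the log2 scale (adjusted p 0.0114) and rose in IR over sham by 3.88 (adjusted p 0.00231), and none of 5 Kupffer or 5 stellate markers passed in any comparison. The part of these cells in the results below was not tested, and in whole liver fewer cells of a type and less RNA per cell cannot be told apart.

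The results turn on 4 genes, shown here by the 250 bases before their start sites in RefSeq (GRCm38.p6), together with Gsta2, the close relative of Gsta1. Gsta1 encodes an alpha-class glutathione transferase (window chr9:78230419-78230668, plus strand), and Gsta2 another of the same class (chr9:78347146-78347395, minus strand). Ugt2b37 encodes a UDP-glucuronosyltransferase (chr5:87254789-87255038, minus strand). Sult1e1, the estrogen sulfotransferase, has its window at chr5:87591612-87591861 on the minus strand. Ugt1a6a, which encodes a glucuronosyltransferase of planar phenols, has its window at chr1:88134559-88134808 on the plus strand. Capitals mark matches to the AP-1 site TGANTCA, searched on both strands.
Gsta1: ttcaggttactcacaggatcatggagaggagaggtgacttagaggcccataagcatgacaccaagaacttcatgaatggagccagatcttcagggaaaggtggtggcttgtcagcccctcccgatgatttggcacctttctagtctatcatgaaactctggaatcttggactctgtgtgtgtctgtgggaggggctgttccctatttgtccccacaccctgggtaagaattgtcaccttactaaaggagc
Gsta2: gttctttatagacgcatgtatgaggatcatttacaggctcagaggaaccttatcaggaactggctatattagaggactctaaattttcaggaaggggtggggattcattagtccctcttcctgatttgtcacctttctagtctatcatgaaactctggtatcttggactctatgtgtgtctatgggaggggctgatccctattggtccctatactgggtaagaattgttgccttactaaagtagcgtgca
Ugt2b37: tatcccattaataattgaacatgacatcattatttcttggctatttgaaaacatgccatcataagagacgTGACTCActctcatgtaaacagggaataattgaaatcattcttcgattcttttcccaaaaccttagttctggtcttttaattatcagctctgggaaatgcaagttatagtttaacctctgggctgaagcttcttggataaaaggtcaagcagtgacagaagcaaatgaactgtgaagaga
Sult1e1: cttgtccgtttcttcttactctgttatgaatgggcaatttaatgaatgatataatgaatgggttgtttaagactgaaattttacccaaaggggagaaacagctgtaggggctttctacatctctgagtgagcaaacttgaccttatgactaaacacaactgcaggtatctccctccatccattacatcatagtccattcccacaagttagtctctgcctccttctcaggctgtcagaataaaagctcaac
Ugt1a6a: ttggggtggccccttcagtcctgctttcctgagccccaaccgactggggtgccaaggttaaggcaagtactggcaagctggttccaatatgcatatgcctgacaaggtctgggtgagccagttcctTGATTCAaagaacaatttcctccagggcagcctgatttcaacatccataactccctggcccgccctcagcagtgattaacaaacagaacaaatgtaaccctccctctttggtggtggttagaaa

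The window of Ugt2b37 held the match TGACTCA at bases -180 to -174 and that of Ugt1a6a the match TGATTCA at bases -124 to -118 from the start site. The motif occurred in 11 of 67 member windows (16.4%), against 6.75% of the 32817 windows of all genes, and 56 of the 65 members had a window. Besides Ugt2b37 and Ugt1a6a, it occurred in Gstm5, Gstp1, Gstp2, Sult1c1, Sult2b1, Ugt2a2, Ugt2b1, Ugt2b35 and Ugt2b38. Of these, Sult1c1 and Ugt2a2 had 0 counts in every library. The antioxidant response element core TGACNNNGC, the letters bound by NRF2, occurred in 3 of 67 member windows (4.48%; Gsta3, Gstm5 and Gstm7), against 10.2% of all windows, and the 2 motifs were searched separately without regard to overlap. These are matches of letters in a short window and say nothing of binding. Gsta1 and Gsta2 matched at 184 of 239 aligned bases of the windows (77.0%) and at 97.2% of aligned transcript bases.

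Sequence shared between members bears on how firmly a count belongs to 1 gene, since neither the counting tool nor its use of strand is known (not given in the sources used here). Of the 50-base stretches of its transcripts, Gsta1 shared 49.6% with another member, Gstp2 44.3% (all with Gstp1), Ugt2b37 18.3% and Sult1e1 0%. Ugt1a genes differ in their first exon and share the rest, and 58.2% of the stretches of Ugt1a1 occurred in another member. Ugt1a6a shared more than these common exons, with 96.0% of its stretches in another member and 94.2% in Ugt1a7c. Its longest transcript matched that of Ugt1a6b at 98.9% of aligned bases. Values of these genes, apart from Sult1e1, are therefore uncertain as to which copy they come from.

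The liver transcribed 44 of the 65 genes at a level that passed the filter on low counts, and 8 of them averaged at least 100 FPKM over the 18 libraries. The other 21 were not tested. Of these, 7 had 0 counts in every library (Ugt2a2, Sult1c1, Sult2a3, Sult2a4, Sult2a5, Sult2a6 and Sult3a2), which allows up to 3 counts of the total of 275886889, counting error only. The remaining 14 (Gsta5, Gstt4, Gsto2, Ugt1a2, Ugt1a8, Ugt1a10, Ugt2a1, Sult2a1, Sult2a2, Sult2b1, Sult3a1, Sult4a1, Sult6b1 and Sult6b2) reached at most 2.18 FPKM in any library. Sult2a1 and Sult3a1, known as female-predominant in mouse liver, had 6 and 3 counts in all, and the Y-linked Ddx3y was at 9.58 FPKM or more in each of the 18 libraries. Of 5 sex-linked genes listed, 1 passed, against 2.36% of all genes lower in IR. This was Xist, which fell in IR against sham by 2.78 on the log2 scale (edgeR adjusted p 0.0148). It was at 0.19 FPKM or less in every library.

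**Figure D1:**
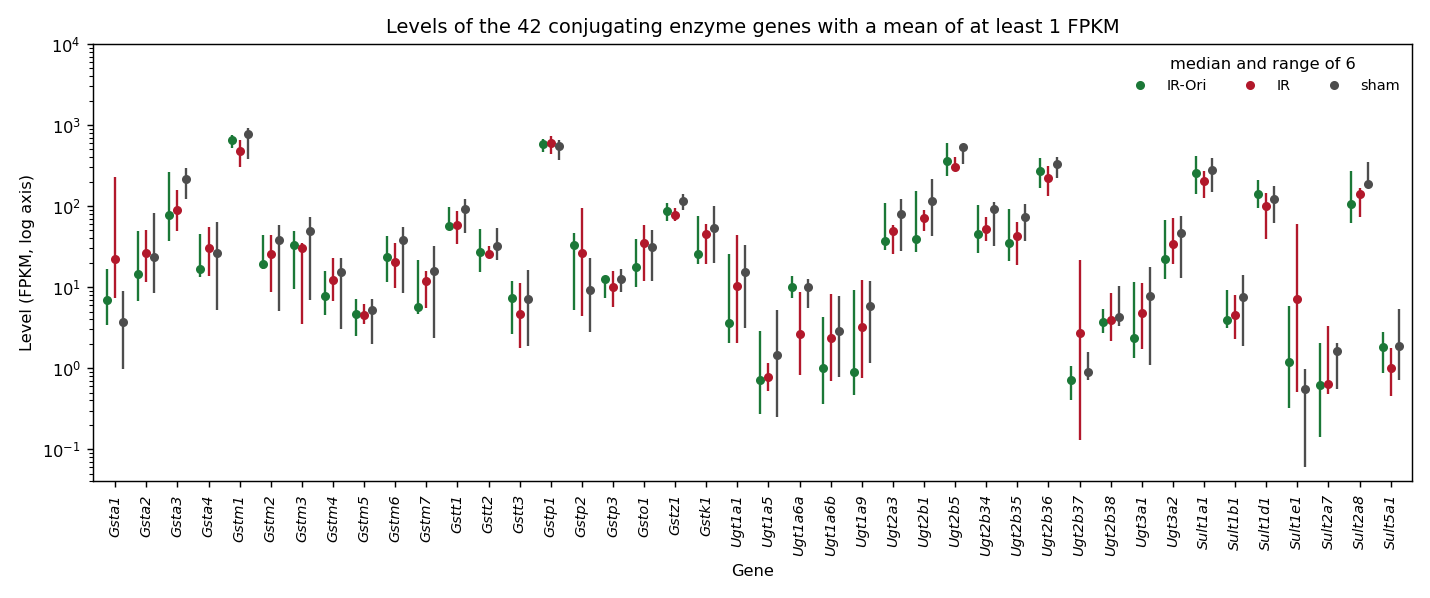
Levels of the 42 member genes with a mean of at least 1 FPKM, on a log axis, with points at the median and lines over the range of 6 libraries in each group (IR-Ori green, IR red, sham grey). Gstm1, Gstp1 and Ugt2b5 stood highest, and the groups overlapped for nearly every gene.

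After ischemia and reperfusion without oridonin, 3 conjugating enzyme genes rose over sham, 1 in each superfamily: Gsta1, Ugt2b37 and Sult1e1. None fell past the threshold in edgeR's quasi-likelihood test at a Benjamini-Hochberg adjusted p of 0.05. Among all 14595 genes tested, 5.52% rose and 2.36% fell, so 3 of 44 higher is near the share of all genes. By direction alone, 5 members had a higher and 39 a lower fitted level in IR, with a median log2 fold change of -0.52, against a median of 0.00 over all genes, of which 7332 were higher and 7263 lower. At an unadjusted p under 0.05, 4 members were higher and 13 lower, against 13.6% and 9.87% of all genes, and DESeq2 placed 6 members lower past the threshold (4.84% of all genes) and limma 1 (1.8%).

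With oridonin, 2 members were lower than in IR, Gsta1 and Ugt2b37, and no member was higher past the threshold. Among all genes 3.01% fell and 0.596% rose in IR-Ori against IR. By direction, 25 members were higher and 19 lower, with a median log2 fold change of 0.09, against 0.00 over all genes. At an unadjusted p under 0.05, 1 member was higher and 3 lower, against 9.81% and 14.4% of all genes. DESeq2 and limma each called 1 higher, Ugt1a6a, against 3.08% of all genes in DESeq2 and 0.336% in limma. Among libraries with a mitochondrial share of at least 15%, no member passed in IR-Ori against IR, and of all genes 0.00688% rose and 0.0413% fell. This comparison uses the same IR libraries as that of IR with sham, so the values of both are given side by side and their signs are not set against each other.

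Between IR-Ori and sham no member passed the edgeR threshold, nor did any of the 14595 genes (0.0%). At an unadjusted p under 0.05, 2 members were higher (Gstp2 and Sult1e1) and 4 lower (Gsta3, Gstz1, Gstk1 and Ugt2b1), against 6.34% and 3.66% of all genes, and DESeq2 and limma called no member. By direction 8 members were higher and 36 lower in IR-Ori, with a median log2 fold change of -0.52, against -0.01 over all genes. The mitochondrial share averaged 27.1% in IR-Ori and 21.9% in sham, and with it as a covariate 9 members were higher and 35 lower, with a median of -0.31, against 0.00 over all genes. Of the 4 lower members, Gstk1 then stood at -0.46, against -0.79 without the covariate, and Ugt2b1 at -0.80, against -1.05.

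**Figure D2:**
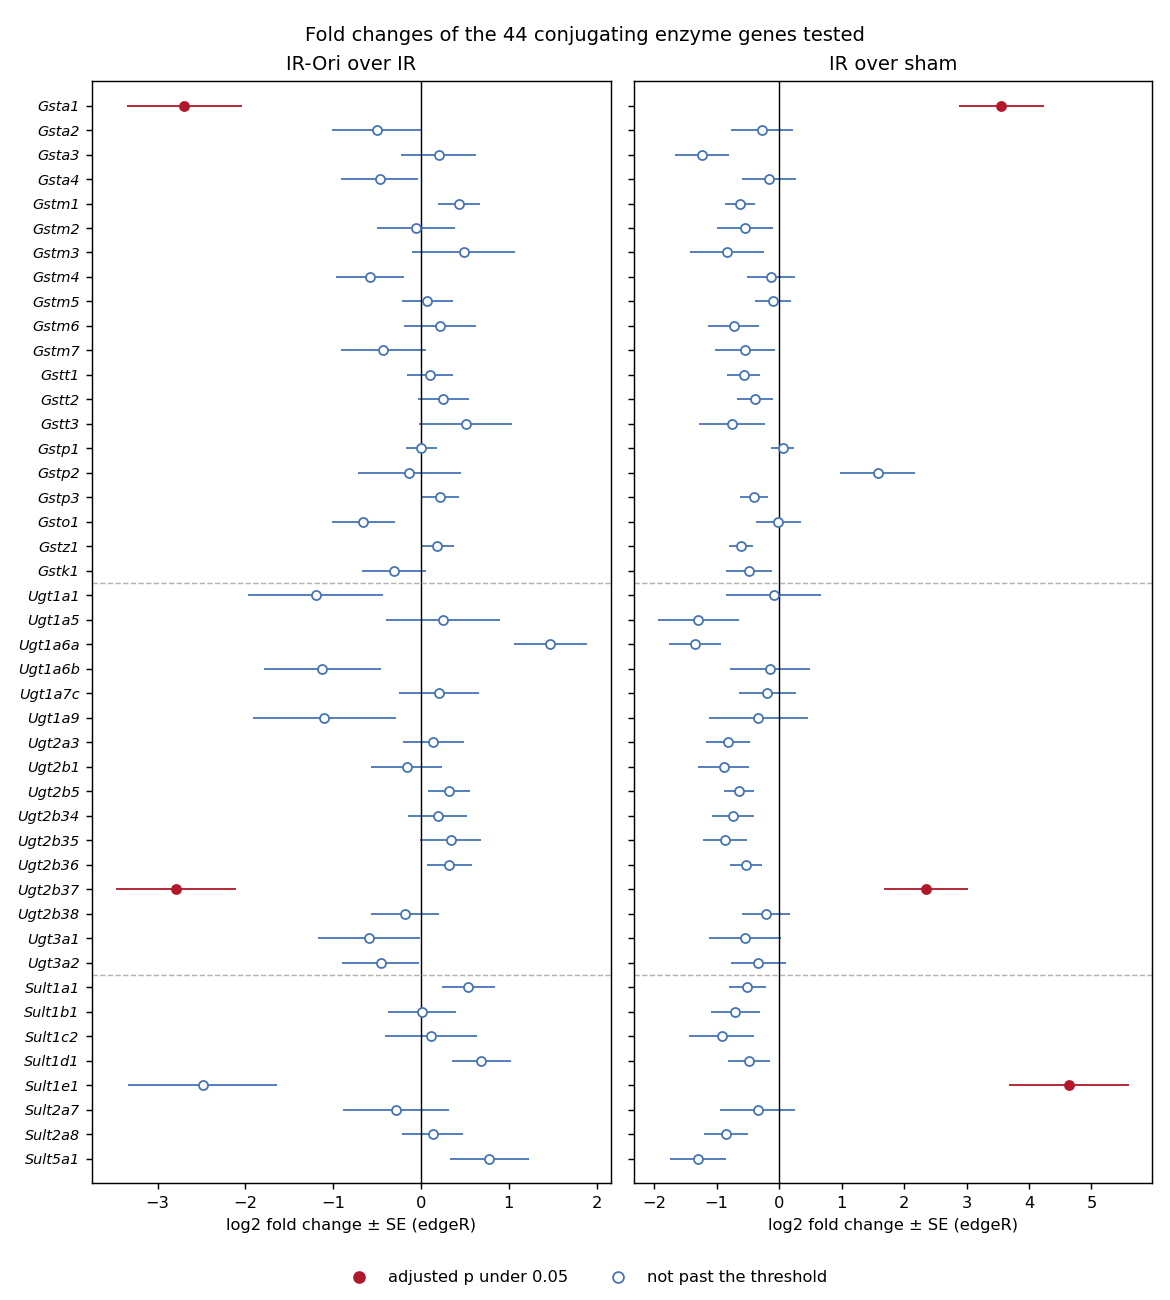
Log2 fold changes with their standard errors for the 44 members tested, IR-Ori over IR on the left and IR over sham on the right, with filled red points for an adjusted p under 0.05 and dashed lines between the Gst, Ugt and Sult superfamilies. In IR over sham the points for Gsta1, Ugt2b37 and Sult1e1 lie far to the right at 3.56, 2.35 and 4.64, while 39 of 44 lie below 0.

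Gsta1 (ENSMUSG00000074183, GRCm39 chr9:78137938-78149966, plus strand) was the glutathione transferase gene that rose in IR. It was at 16.9, 5.74, 9.30, 6.07, 3.37 and 7.70 FPKM in IR-Ori 1 to 6. It was at 19.3, 14.9, 25.1, 71.5, 227 and 7.34 FPKM in IR 1 to 6, and at 2.01, 0.98, 7.34, 4.08, 9.05 and 3.25 FPKM in sham 1 to 6. In 5 of 6 IR libraries it exceeded the highest sham library, and in 3 of 6 IR-Ori libraries it lay below the lowest IR library. Its log2 fold change was 3.56 ± 0.68 (SE) in IR over sham (edgeR adjusted p 0.00425) and -2.70 ± 0.65 in IR-Ori over IR (adjusted p 0.0281). IR-Ori differed from sham by 0.86 ± 0.64 (adjusted p 0.572).

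The highest Gsta1 value was in IR 5. Without this library the rise in IR over sham was 2.59 (adjusted p 0.0112), and the difference of IR-Ori from IR was -1.73 and no longer passed (adjusted p 0.109). The difference of IR-Ori from IR also missed the threshold without IR-Ori 2 (adjusted p 0.0672), IR-Ori 3 (0.0574), IR-Ori 4 (0.06), IR-Ori 6 (0.0637) or IR 4 (0.0709). It missed it as well with the mitochondrial share as a covariate, at -2.24 (adjusted p 0.0835), with only the 2 groups fitted, at -2.68 (adjusted p 0.0626), and with limma on the log2(FPKM + 1) scale, at -1.96 (adjusted p 0.0975). Fits of libraries with a mitochondrial share of at least 15% held only the 2 groups compared. They drew on IR-Ori 1, 2, 3, 4 and 6, IR 1, 2 and 3, and sham 2, 5 and 6. There the difference of IR-Ori from IR was -1.14 (adjusted p 0.238) and that of IR from sham 2.17 (adjusted p 0.122). Among the 6 IR and sham libraries under 15% the rise was 4.26 (adjusted p 0.0321).

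The close relatives of Gsta1 did not pass the test. Gsta2, at 6.77 to 49.3 FPKM in IR-Ori (median 14.3), 11.5 to 50.5 FPKM in IR (median 26.7) and 8.39 to 81.5 FPKM in sham (median 23.5), differed by -0.51 ± 0.50 in IR-Ori over IR and -0.27 ± 0.50 in IR over sham. Gsta4, whose enzyme conjugates the lipid peroxidation product 4-hydroxynonenal, had medians of 16.8 FPKM in IR-Ori, 30.1 FPKM in IR and 26.4 FPKM in sham, with log2 fold changes of -0.47 ± 0.44 in IR-Ori over IR and -0.16 ± 0.44 in IR over sham. Whether Gsta1 and Gsta2 changed unequally was not tested. Gsta3, known in mice for detoxifying aflatoxin B1 epoxide, was the most abundant of the class and made up 63.1% of its summed FPKM. It was at 37.2 to 263 FPKM in IR-Ori (median 77.9), 48.8 to 160 FPKM in IR (median 90.3) and 123 to 296 FPKM in sham (median 216). In 5 of 6 IR libraries it lay below the lowest sham library, yet at -1.24 ± 0.43 it missed the edgeR threshold (adjusted p 0.0844); DESeq2 gave -1.25 (adjusted p 0.0265).

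The mu class was led by Gstm1, a major hepatic transferase and the most abundant member of all the families, with 84.3% of the summed FPKM of the class. It was at 520 to 750 FPKM in IR-Ori (median 646), 302 to 654 FPKM in IR (median 473) and 380 to 924 FPKM in sham (median 782). The groups overlapped, at -0.63 ± 0.24 in IR over sham (adjusted p 0.116) and 0.43 ± 0.24 in IR-Ori over IR (adjusted p 0.265). Among the libraries under a 15% mitochondrial share, Gstm1 fell in IR against sham by 1.18 on the log2 scale (adjusted p 0.0232). Gstm2 had medians of 19.5 FPKM in IR-Ori, 25.4 FPKM in IR and 38.1 FPKM in sham, and Gstm3 medians of 32.9 FPKM in IR-Ori, 30.3 FPKM in IR and 49.4 FPKM in sham. All 7 mu genes had negative log2 fold changes in IR over sham, -0.84 to -0.10, and none passed.

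In the pi class, no gene passed in the 3-group model. Gstp1, an abundant transferase of the male mouse liver, was at 465 to 664 FPKM in IR-Ori (median 591), 441 to 742 FPKM in IR (median 598) and 375 to 658 FPKM in sham (median 553). Its log2 fold changes were 0.00 ± 0.18 in IR-Ori over IR and 0.06 ± 0.18 in IR over sham. Gstp2 was at 5.27 to 47.0 FPKM in IR-Ori (median 33.2), 4.36 to 93.7 FPKM in IR (median 26.6) and 2.79 to 23.0 FPKM in sham (median 9.11). At 1.58 ± 0.60 in IR over sham it did not pass (adjusted p 0.114), but it did with the mitochondrial share as a covariate, at 1.80 ± 0.53 (adjusted p 0.032). Gstp3 had medians of 12.6 FPKM in IR-Ori, 10.1 FPKM in IR and 12.5 FPKM in sham.

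The remaining glutathione transferases did not pass in any comparison. Gstz1, the maleylacetoacetate isomerase of tyrosine breakdown, was at 64.8 to 109 FPKM in IR-Ori (median 86.5), 65.7 to 94.6 FPKM in IR (median 77.9) and 89.9 to 143 FPKM in sham (median 116). It lay below the lowest sham library in 5 of 6 IR libraries, at -0.61 ± 0.19 (adjusted p 0.0561 in edgeR, 0.00464 in DESeq2). Gstt1, a theta-class enzyme for halogenated hydrocarbons, had medians of 57.2 FPKM in IR-Ori, 58.2 FPKM in IR and 91.2 FPKM in sham, at -0.56 ± 0.27 in IR over sham (adjusted p 0.203), and 0.020 among libraries with a mitochondrial share of at least 15%. Gstt2 had medians of 27.0 FPKM in IR-Ori, 25.8 FPKM in IR and 32.2 FPKM in sham, and Gstt3 medians of 7.33 FPKM in IR-Ori, 4.73 FPKM in IR and 7.08 FPKM in sham. Gsto1, a glutaredoxin-like omega enzyme, and Gstk1, the kappa enzyme of mitochondria and peroxisomes, were both lowest in IR-Ori by median. Gsto1 had medians of 17.6 FPKM in IR-Ori, 34.8 FPKM in IR and 31.3 FPKM in sham, and Gstk1 medians of 25.6 FPKM in IR-Ori, 45.5 FPKM in IR and 53.2 FPKM in sham. The difference of IR-Ori from IR was -0.66 ± 0.36 for Gsto1 (adjusted p 0.263) and -0.31 ± 0.36 for Gstk1 (adjusted p 0.611). With the mitochondrial share as a covariate, both fell as the share rose, at -0.54 for Gsto1 and -0.52 for Gstk1 per 10 points (log2 scale). Only IR-Ori 5 in its group had a share under 15%, and the part of the share in these medians was not tested.

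Ugt2b37 (ENSMUSG00000057425, GRCm39 chr5:87388352-87402663, minus strand) was the glucuronosyltransferase that rose in IR. It was at 0.65, 0.77, 1.02, 1.06, 0.41 and 0.54 FPKM in IR-Ori 1 to 6. It was at 4.13, 2.16, 3.21, 21.5, 1.92 and 0.13 FPKM in IR 1 to 6, and at 0.90, 1.57, 0.72, 0.76, 0.91 and 1.17 FPKM in sham 1 to 6. In 5 of 6 IR libraries it exceeded every sham and IR-Ori library, and in IR 6 it was below all of them. The log2 fold change was 2.35 ± 0.67 in IR over sham (edgeR adjusted p 0.0358), -2.79 ± 0.68 in IR-Ori over IR (adjusted p 0.0295) and -0.44 ± 0.67 in IR-Ori over sham (adjusted p 0.794).

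The highest Ugt2b37 value was in IR 4. Without IR 4 the difference of IR from sham was 1.20 (adjusted p 0.203) and that of IR-Ori from IR -1.63 (adjusted p 0.13). The call of IR over sham was also lost without sham 1 (adjusted p 0.0655), sham 3 (0.0723), sham 4 (0.0733), sham 5 (0.0747) or sham 6 (0.0597). The call of IR-Ori against IR was lost without IR-Ori 1 (adjusted p 0.072), IR-Ori 2 (0.0624), IR-Ori 3 (0.0551) or IR-Ori 6 (0.0703). With only the 2 groups fitted, the adjusted p was 0.0801 for IR over sham and 0.0789 for IR-Ori over IR. On the log2(FPKM + 1) scale, limma gave 1.06 (adjusted p 0.162) for IR over sham and -1.26 (adjusted p 0.119) for IR-Ori over IR. Among libraries with a mitochondrial share of at least 15%, IR-Ori over IR was -1.99 (adjusted p 0.0832) and IR over sham 1.42 (adjusted p 0.171), and under 15% IR over sham was 3.16 (adjusted p 0.149).

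The other Ugt2b genes, whose enzymes act on steroids, bile acids and drugs, made up most of the glucuronosyltransferase transcripts. Ugt2b5, with 39.3% of the summed Ugt FPKM, was at 233 to 596 FPKM in IR-Ori (median 357), 279 to 401 FPKM in IR (median 305) and 326 to 568 FPKM in sham (median 536). Ugt2b36 was at 166 to 393 FPKM in IR-Ori (median 272), 133 to 310 FPKM in IR (median 223) and 224 to 404 FPKM in sham (median 330). Ugt2b1 was at 26.8 to 152 FPKM in IR-Ori (median 38.8), 49.4 to 88.6 FPKM in IR (median 71.6) and 43.0 to 216 FPKM in sham (median 117). All 3 had lower medians in IR than in sham with overlapping groups, at -0.65 ± 0.24, -0.54 ± 0.25 and -0.88 ± 0.41, and adjusted p of 0.105, 0.208 and 0.192. Across the 7 Ugt2b genes, 6 had negative log2 fold changes in IR over sham. The summed level of the class was 557 to 1342 FPKM in IR-Ori (median 746), 599 to 903 FPKM in IR (median 705) and 696 to 1335 FPKM in sham (median 1189). Ugt2a3, which glucuronidates bile acids in humans, was at 28.8 to 109 FPKM in IR-Ori (median 37.0), 25.8 to 58.1 FPKM in IR (median 49.6) and 27.6 to 123 FPKM in sham (median 79.3), at -0.81 ± 0.35 in IR over sham (adjusted p 0.16).

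Ugt1a6a (ENSMUSG00000054545, GRCm39 chr1:88062531-88146719, plus strand) was low in IR but missed the edgeR threshold narrowly. It was at 13.8, 7.43, 9.75, 9.24, 12.6 and 10.6 FPKM in IR-Ori 1 to 6. It was at 3.35, 7.45, 8.72, 1.32, 1.96 and 0.83 FPKM in IR 1 to 6, and at 5.59, 10.1, 12.8, 10.03, 10.9 and 8.27 FPKM in sham 1 to 6. In 4 of 6 IR libraries it lay below every IR-Ori and sham library, and the lowest 3 were IR 4, IR 5 and IR 6. The log2 fold change was 1.47 ± 0.42 in IR-Ori over IR (edgeR adjusted p 0.053), -1.35 ± 0.42 in IR over sham (adjusted p 0.0503) and 0.12 ± 0.41 in IR-Ori over sham (adjusted p 0.917). DESeq2 gave adjusted p of 0.0108 and 0.0153 for the first 2 of these, and limma 0.0407 and 0.0275. Among libraries under a 15% mitochondrial share the difference of IR from sham was -2.93 ± 0.34 (adjusted p 0.00603), and among those of at least 15% it was -0.65 (adjusted p 0.312).

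**Figure D3:**
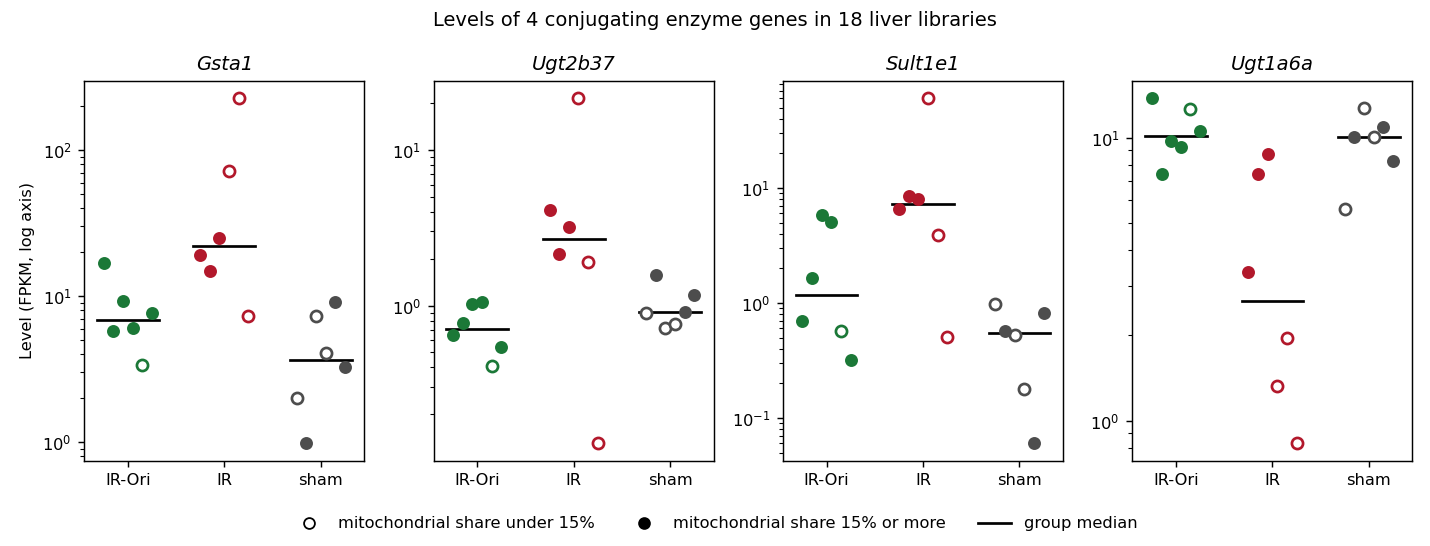
Levels of Gsta1, Ugt2b37, Sult1e1 and Ugt1a6a in each of the 18 libraries (FPKM, log axis), by group, with open points for a mitochondrial share under 15%, filled points for 15% or more and bars at the group median. In IR, Ugt1a6a was lowest in the 3 open points at 0.83 to 1.96 FPKM, and a single library stands highest for each of Gsta1 (227 FPKM), Ugt2b37 (21.5 FPKM) and Sult1e1 (60.2 FPKM).

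Ugt1a1, the bilirubin glucuronosyltransferase, was higher in the libraries of low mitochondrial share in every group. It was at 2.04 to 25.5 FPKM in IR-Ori (median 3.62), 2.06 to 44.3 FPKM in IR (median 10.2) and 3.14 to 33.4 FPKM in sham (median 15.4), with log2 fold changes of -1.20 ± 0.77 in IR-Ori over IR (adjusted p 0.336) and -0.09 ± 0.75 in IR over sham (adjusted p 0.959). The 7 libraries under 15% held 13.6 to 44.3 FPKM, above all 11 others at 2.04 to 6.86 FPKM. Ugt1a9, which glucuronidates phenols in humans, was at 0.47 to 9.21 FPKM in IR-Ori (median 0.89), 0.76 to 12.3 FPKM in IR (median 3.19) and 1.15 to 11.9 FPKM in sham (median 5.85). It was at 4.73 to 12.3 FPKM in the 7 libraries and at 0.47 to 1.99 FPKM in the 11 others. The ranges were also separate, and higher under 15%, for Gsta4, Gstm4, Gsto1, Gstk1, Ugt1a6b and Ugt3a1, which makes 8 of the 44 members tested (18.2%), against 6.12% of all genes. No member was separated the other way, against 1.71% of all genes.

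This relation was tested within groups, by adding the mitochondrial share to the edgeR model. Per 10 points of share, 20 of 44 members fell and 1, Gstp2, rose, against 23.0% and 19.9% of all genes. The median change of the members was -0.31 on the log2 scale, against -0.01 over all genes. The largest falls were those of Ugt1a1 (-1.20, adjusted p 5.14e-06), Ugt1a9 (-1.03, adjusted p 0.000308), Ugt1a6b (-0.94, adjusted p 8.17e-05) and Ugt3a1 (-0.91, adjusted p 1.33e-05). Gstp2 rose by 0.60 (adjusted p 0.047). Of the 8 members averaging at least 100 FPKM, Gstp1, Gstm1, Ugt2b5, Ugt2b36 and Sult1a1 moved by -0.09 to -0.01 and did not pass. Sult1d1 (0.02) and Sult2a8 (-0.19) did not pass either, whereas Gsta3 moved by -0.39 and passed (adjusted p 0.027). FPKM of all nuclear genes fall together as the mitochondrial share rises, by at most 1.64-fold between the extreme libraries here (from the shares alone), whereas the test used counts scaled by TMM. What the share stands for in these livers was not tested.

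**Figure D4:**
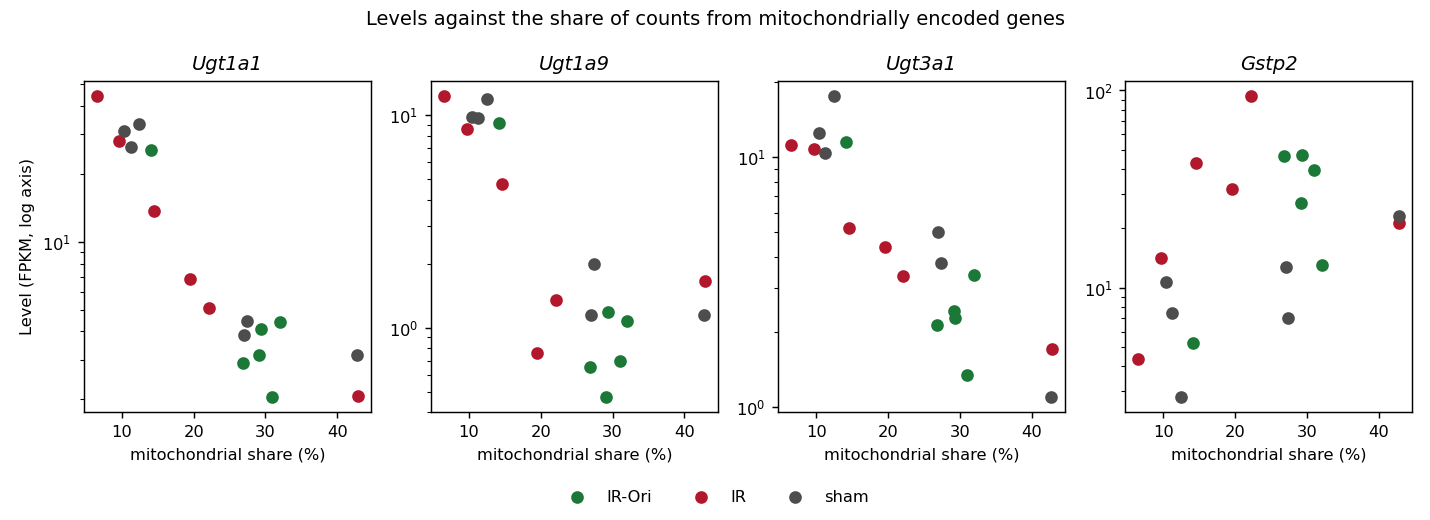
Levels of Ugt1a1, Ugt1a9, Ugt3a1 and Gstp2 (FPKM, log axis) against the share of counts from mitochondrially encoded genes in each of the 18 libraries (percent), coloured by group (IR-Ori green, IR red, sham grey). Ugt1a1 lies at 13.6 FPKM or more in the 7 libraries under 15% and at 6.86 FPKM or less in the others, in all groups, while Gstp2 runs the other way with wide scatter.

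The Ugt3a genes use sugars other than glucuronic acid in humans. Ugt3a1 was at 1.34 to 11.5 FPKM in IR-Ori (median 2.35), 1.70 to 11.2 FPKM in IR (median 4.81) and 1.09 to 17.6 FPKM in sham (median 7.74), and Ugt3a2 had medians of 22.4 FPKM in IR-Ori, 34.2 FPKM in IR and 47.0 FPKM in sham. Neither passed. Ugt3a1 differed by -0.59 ± 0.58 in IR-Ori over IR and -0.55 ± 0.57 in IR over sham, and Ugt3a2 by -0.46 ± 0.44 and -0.33 ± 0.44 in the same order of comparisons.

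Sult1e1 (ENSMUSG00000029272, GRCm39 chr5:87723828-87739453, minus strand), whose enzyme inactivates estrogens, had the largest fold change in IR over sham among the 44 members tested. It was at 0.70, 1.65, 5.79, 5.02, 0.57 and 0.32 FPKM in IR-Ori 1 to 6. It was at 6.50, 8.57, 7.97, 60.2, 3.93 and 0.51 FPKM in IR 1 to 6, and at 0.97, 0.57, 0.53, 0.18, 0.06 and 0.82 FPKM in sham 1 to 6. In 5 of 6 IR libraries and 3 of 6 IR-Ori libraries it exceeded the highest sham library. The log2 fold change was 4.64 ± 0.96 in IR over sham (edgeR adjusted p 0.00707). IR-Ori lay between the other groups by median and passed against neither, at -2.49 ± 0.85 over IR (adjusted p 0.0935) and 2.15 ± 0.92 over sham (adjusted p 0.498).

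Without IR 4, its highest library, the rise of Sult1e1 in IR over sham was 3.30 (adjusted p 0.026), and the difference of IR-Ori from IR was -1.14 (adjusted p 0.402). It was the 1 member that passed in IR over sham among libraries with a mitochondrial share of at least 15%, at 3.91 ± 0.54 (adjusted p 0.0127), where 0.596% of all genes rose and 0.224% fell. Under 15% its log2 fold change was 5.09 and did not pass (adjusted p 0.0688). Among the libraries under 15%, 1 member rose (Gsta1) and 8 fell in IR against sham, Gsta3, Gstm1, Ugt1a5, Ugt1a6a, Ugt2a3, Ugt2b1, Ugt2b5 and Ugt2b35, against 7.46% and 4.11% of all genes, with 3 libraries in each group.

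The abundant sulfotransferases did not pass in any comparison. Sult1a1, the main phenol sulfotransferase, made up 45.1% of the summed Sult FPKM. It was at 140 to 415 FPKM in IR-Ori (median 258), 127 to 272 FPKM in IR (median 203) and 148 to 389 FPKM in sham (median 276), at 0.54 ± 0.30 in IR-Ori over IR (adjusted p 0.273). Sult1d1, which sulfates catecholamines, was at 95.2 to 210 FPKM in IR-Ori (median 142), 39.1 to 144 FPKM in IR (median 101) and 61.5 to 176 FPKM in sham (median 121), at 0.69 ± 0.34 in IR-Ori over IR (adjusted p 0.217). Both had their highest single library in IR-Ori.

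Sult2a8, a bile acid sulfotransferase of mouse liver, was the member whose IR and sham libraries did not overlap without passing the test. It was at 62.4 to 273 FPKM in IR-Ori (median 108), 74.2 to 169 FPKM in IR (median 139) and 170 to 350 FPKM in sham (median 187). The highest IR library was at 168.9 FPKM and the lowest sham library at 170.2 FPKM. Of all genes, 1.13% were separated in this direction and 2.04% in the other, where no member was. Its log2 fold change was -0.86 ± 0.35 in IR over sham (adjusted p 0.141) and 0.13 ± 0.35 in IR-Ori over IR (adjusted p 0.842). Sult2a7 had medians of 0.62 FPKM in IR-Ori, 0.64 FPKM in IR and 1.65 FPKM in sham. Sult5a1 was at 0.88 to 2.78 FPKM in IR-Ori (median 1.81), 0.45 to 1.79 FPKM in IR (median 1.01) and 0.72 to 5.43 FPKM in sham (median 1.89), at -1.29 ± 0.45 in IR over sham (adjusted p 0.0825 in edgeR, 0.0337 in DESeq2).

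The 12 other genes tested (Gstm4, Gstm5, Gstm6, Gstm7, Ugt1a5, Ugt1a6b, Ugt1a7c, Ugt2b34, Ugt2b35, Ugt2b38, Sult1b1 and Sult1c2) passed in no comparison of all 18 libraries. Their log2 fold changes ran from -1.12 (Ugt1a6b) to 0.34 (Ugt2b35) in IR-Ori over IR and from -1.29 (Ugt1a5) to -0.10 (Gstm5) in IR over sham.

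Summed over each superfamily, levels overlapped among the groups. Gst genes summed to 1378 to 2238 FPKM in IR-Ori (median 1759), 1223 to 2030 FPKM in IR (median 1802) and 1193 to 2573 FPKM in sham (median 2134). Ugt genes summed to 612 to 1585 FPKM in IR-Ori (median 817), 654 to 1019 FPKM in IR (median 857) and 754 to 1598 FPKM in sham (median 1358). Sult genes summed to 387 to 790 FPKM in IR-Ori (median 575), 307 to 618 FPKM in IR (median 412) and 470 to 866 FPKM in sham (median 644). The median was highest in sham for each of the 3, within overlapping ranges.

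Genes that feed these enzymes were counted from lists. Of 13 glutathione supply genes tested, 4 rose in IR over sham: Gclc, the catalytic subunit of the rate-limiting ligase, Slc7a11, the cystine importer, Txnrd1, a thioredoxin reductase, and Chac1, which breaks glutathione down. In IR-Ori against IR, a comparison that shares the IR libraries, these 4 passed as lower. Gclc was at 42.6 to 113 FPKM in IR-Ori, 70.5 to 831 FPKM in IR and 40.6 to 142 FPKM in sham, with log2 fold changes of -1.82 ± 0.42 in IR-Ori over IR (adjusted p 0.0224) and 1.88 ± 0.42 in IR over sham (adjusted p 0.0107). Like Gsta1, it was highest in IR 5. In IR 4, IR 5 and IR 6, which had a mitochondrial share under 15%, Gclc was at 309, 831 and 286 FPKM. In IR 1 to 3 it was at 70.5, 128 and 172 FPKM. Among libraries of at least 15%, 0.0413% of all genes fell in IR-Ori against IR, and values of the listed genes from that fit are not given here. Of 17 NRF2 targets other than the transferases, 7 rose in IR over sham (Srxn1, Cbr3, Hmox1, Akr1b8, Gclc, Slc7a11 and Txnrd1), and in IR-Ori against the same IR libraries 5 passed as lower (Srxn1, Cbr3, Gclc, Slc7a11 and Txnrd1). Gclc, Slc7a11 and Txnrd1 are also in the glutathione list. Of all genes tested, 5.52% rose in IR over sham and 3.01% fell in IR-Ori against IR. Slc7a11 was at 0.77 FPKM or less in every library. Srxn1, which restores peroxiredoxins, was at 15.1 to 30.8 FPKM in IR-Ori, 47.4 to 852 FPKM in IR and 8.90 to 22.8 FPKM in sham, at -3.21 ± 0.54 in IR-Ori over IR (adjusted p 0.00429) and 3.83 ± 0.55 in IR over sham (adjusted p 0.000726). It was at 335, 852 and 206 FPKM in IR 4 to 6 and at 47.4, 70.6 and 69.7 FPKM in IR 1 to 3. Nqo1, another target, did not pass, at -0.51 ± 0.40 in IR-Ori over IR and 0.27 ± 0.39 in IR over sham.

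The other lists covered donors, transport and control. Of all genes tested, 5.52% rose and 2.36% fell in IR against sham, and 0.596% rose in IR-Ori over IR. From the list for the sulfate donor PAPS, 7 genes were tested (Papss1, Papss2, Slc35b2, Slc35b3, Bpnt1, Bpnt2 and Slc26a1). In IR against sham 2 fell, the PAPS synthase Papss2 by 1.18 on the log2 scale (adjusted p 0.0347) and the sulfate transporter Slc26a1 by 0.93 (adjusted p 0.00956). None of the 7 passed in IR-Ori against IR. None of the 5 genes tested from the UDP-glucuronate list (Ugp2, Ugdh, Slc35d1, Slc35b1 and Gusb) passed in any comparison. Of 8 export transporters, Abcc1, which exports glutathione conjugates, rose in IR over sham by 1.38 (adjusted p 0.0252) at 0.66 FPKM or less. Of 16 regulators, Esr1, the estrogen receptor alpha, fell in IR against sham by 1.88 (adjusted p 0.00122), at 0.50 to 1.85 FPKM in IR-Ori, 0.38 to 0.55 FPKM in IR and 1.04 to 2.37 FPKM in sham. The regulator Nr1i3 was at 39.7 to 223 FPKM in IR-Ori, 9.06 to 87.6 FPKM in IR and 49.6 to 176 FPKM in sham, at -1.54 ± 0.51 in IR over sham (adjusted p 0.0689). Of 19 other conjugating enzymes, 2 glycine-conjugation ligases fell in IR against sham, Acsm5 by 1.18 (adjusted p 0.00233) and Acsm1 by 0.72 (adjusted p 0.0176), and Acsm5 rose in IR-Ori over IR by 0.97 (adjusted p 0.0152). Acsm5 was at 24.3 to 42.6 FPKM in IR-Ori, 12.1 to 23.9 FPKM in IR and 29.3 to 47.9 FPKM in sham, so that IR overlapped neither other group, and 0.391% of all genes were separated upward in IR-Ori over IR.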

How the data were processed

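RNA sequencing of 18 mouse liver libraries was used. The submitters' processing notes name cutadapt 1.9.1, HISAT2 2.2.1, the build GRCm39 and DESeq2 with no version. Counting tool and annotation: not given in the sources used here. An unscaled count per gene and FPKM were deposited by the authors, and FPKM totals include mitochondrial counts: count over gene size and library total returned 100.0% of the deposited FPKM within 0.0051. No 2 libraries of a group were alike (chi-square per gene at least 16.0).

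The test was that of edgeR 4.0.16 (R 4.3.3) on the counts: filterByExpr (minimum count 10, minimum total 15), TMM scaling, and 1 quasi-likelihood model of the 3 groups over 18 libraries and 14595 genes. Tests were two-sided, with Benjamini-Hochberg adjustment over those genes and a threshold of 0.05. DESeq2 1.42.0 and limma 3.58.1 on log2(FPKM + 1) were alternatives. Only the edgeR step was tested on simulated counts.

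Values are named for members past the threshold, for the 3 most abundant of each family and for members whose groups do not overlap; Ugt1a6a meets the abundance rule. Any others were picked on seeing their values. Members and lists were chosen with earlier results of these data known. Promoters came from RefSeq (GRCm38.p6), and transcripts from GENCODE of an older build, joined by gene identifier. Intervals and floors cover counting error only.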

Additional observations from a re-analysis of the deposited data

Results flagged for a closer look

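In 96 groups of 6 libraries examined for a single distant library, 15 had 1 (Dixon's test), where chance flags about 1 in 20. In 11 of the 15 the distant library was IR-Ori 5, the 1 library of its group with a mitochondrial share under 15%, and its level was the highest of IR-Ori. It held 49.3 FPKM of Gsta2, 44.8 FPKM of Gsta4, 44.04 FPKM of Gstm2, 98.1 FPKM of Gstt1 and 76.4 FPKM of Gstk1. Of the glucuronosyltransferases it held 25.5 FPKM of Ugt1a1, 9.21 FPKM of Ugt1a9, 109 FPKM of Ugt2a3, 152 FPKM of Ugt2b1, 11.5 FPKM of Ugt3a1 and 67.9 FPKM of Ugt3a2.

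The other 4 were in IR, each with the distant library highest. Gsta1 was at 227 FPKM in IR 5. Ugt2b37 was at 21.5 FPKM and Sult1e1 at 60.2 FPKM, both in IR 4. Sult2a7 was at 3.34 FPKM in IR 6.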

How the results depend on the processing

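Counts of members and of all genes moved with the processing. Members higher in IR than in sham were 3, and 4 with the mitochondrial share as a covariate (Gstp2 added), 2 to 3 with 1 library left out, 2 with the replicate numbers as a block, with limma and with only the 2 groups fitted, and 1 among libraries with a mitochondrial share under 15% as well as among those of at least 15%. All genes higher in IR were 806, and 390 with limma, 453 with the block, 85 among libraries of at least 15%, and 442 to 920 with 1 library left out. Members lower in IR were 0, and 1 with size factors, without the filter on low counts, with limma, with the block, and with only the 2 groups fitted; they were 6 with DESeq2, 4 with the mitochondrial share as a covariate, 8 among libraries under 15%, and 0 to 2 with 1 library left out. All genes lower in IR were 345, and 705 with DESeq2, 204 with limma, 191 with the block, 718 with the covariate, 582 under 15%, 32 at 15% or more, and 134 to 640 with 1 library left out.

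Members higher in IR-Ori than in IR were 0, and 1 with DESeq2, without the filter and with limma, and 0 to 1 with 1 library left out. All genes higher were 87, and 449 with DESeq2, 38 with limma, 28 with the block, 24 with only the 2 groups, 1 at 15% or more, and 11 to 319 with 1 library left out. Members lower in IR-Ori were 2, and 1 with the covariate (Ugt2b37). Without the filter on low counts, Gsta5 was added to the 2. Members lower were 0 with limma, with the block, with only the 2 groups, and among libraries of at least 15%. With 1 library left out they were 0 to 2, namely 0 without IR-Ori 2, IR-Ori 3, IR-Ori 6 or IR 4, and 1 without IR-Ori 1, IR-Ori 4 or IR 5. All genes lower were 439, and 886 with DESeq2, 95 with limma, 135 with the block, 231 with the covariate, 148 with only the 2 groups, 6 at 15% or more, and 140 to 737 with 1 library left out. Between IR-Ori and sham, DESeq2 called 34 genes higher and 4 lower, against 0 in edgeR. Reversals of sign were counted only for member fold changes with an unadjusted edgeR p under 0.05. Of these, Gstt1 reversed, at 0.020 (adjusted p 0.981) for IR over sham among libraries of at least 15%. Other member fold changes also changed sign with 1 library left out. Among them, Gsta2 in IR over sham ran from -0.52 to 0.19, and Gsta3 in IR-Ori over IR from -0.30 to 0.40. The cause of these shifts was not tested.

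Replicate numbers did not pair IR with sham libraries, where same-numbered deviations correlated at -0.44 to 0.34. Between IR-Ori and IR they correlated at 0.01 to 0.42, and 3 of 6 libraries correlated best with their own number. These values do not settle whether IR-Ori and IR libraries were paired by number. With the block, Gsta1 (-1.93, adjusted p 0.0976) and Ugt2b37 (-2.20, adjusted p 0.092) did not pass in IR-Ori against IR, nor Ugt2b37 in IR over sham (1.56, adjusted p 0.194). The subset of at least 15% for the IR-Ori comparisons was chosen after seeing the data, and that under 15% could not be run for them, since it holds 1 IR-Ori library. Low genes are limited by depth: 3 counts correspond to 0.152 to 0.241 CPM in a library.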

Other observations

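Gsta5, another close relative of Gsta1 (96.7% of aligned transcript bases), was too low for the filter on counts, with 59 counts in all. It had 0 counts in all 6 IR-Ori libraries, whereas it was at 1.05 FPKM in IR 4 and 2.18 FPKM in IR 5, at 0.18 FPKM or less in the other IR libraries and at 0.14 FPKM or less in sham. Without the filter it passed in IR-Ori against IR (edgeR adjusted p 0.0213). As 41.3% of the 50-base stretches of its transcripts occur in another member, these counts may in part belong to that copy, which was not tested. The gene was chosen after its values were seen.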
